A study of Mus musculus with 8 samples.

Results

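The Notch pathway genes described here are 10 genes of the mouse, chosen by symbol: the receptors Notch1, Notch2 and Notch3, the ligands Dll1 and Jag1, the transcription factor genes Hes1, Hes6, Hey1 and Heyl, and the inhibitor Numb. All 10 were found once in each of the deposited tables, among 52338 genes in the Re table and 52139 in the GBC table. RNA was sequenced from cells labelled as wild-type C2C12, an immortalised mouse myoblast line, in 4 groups. Ginsenoside Re, a saponin of ginseng, was given to 3 samples, which stand in the Re table with 3 DMSO samples, DMSO being the solvent control. Ginseng berries concentrate (GBC) was given to 1 sample, which stands with 1 DMSO sample in a table of its own. The labels used here give no dose and no time, and they do not say whether samples of a group came from separate cultures. P-values therefore weigh a difference against the spread between these samples, which may be technical.

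Notch receptors are membrane proteins that are cut when a Delta or Jagged ligand on a neighbouring cell pulls on them. The freed inner part enters the nucleus, joins the DNA-binding protein RBPJ and a Mastermind coactivator, and switches on Hes and Hey genes, which encode repressors. In muscle the pathway is known for holding satellite cells and myoblasts undifferentiated, and Numb, which directs Notch for degradation, counters it. Hes6 is the exception among the Hes genes: its product opposes Hes1 and is known to favour myogenic differentiation.

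Promoter sequence was available for 7 of the 10 genes, in 11 windows of the RefSeq table of GRCm38.p6. The 3 windows shown are the 250 bases before a start of the most abundant of the 3 receptors, of a receptor whose level differed widely between the tables, and of the antagonist Hes6. They are printed 5′ to 3′ on the gene's strand, and capitals mark matches to TGGGAA (the core bound by RBPJ), CAGCTG and CAGGTG (E-boxes of the kind bound by myogenic factors) and GGGCGG (the GC box), each searched on both strands. Notch2 is at chr3:98013288-98013537 on the plus strand, Notch3 at chr17:32166891-32167140 on the minus strand, and Hes6 at chr1:91414039-91414288 on the minus strand.
Notch2: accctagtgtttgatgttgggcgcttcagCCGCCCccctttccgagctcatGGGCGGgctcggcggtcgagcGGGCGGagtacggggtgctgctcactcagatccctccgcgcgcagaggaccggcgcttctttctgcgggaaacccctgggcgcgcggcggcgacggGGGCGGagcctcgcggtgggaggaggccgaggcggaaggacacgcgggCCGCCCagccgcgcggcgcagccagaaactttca
Notch3: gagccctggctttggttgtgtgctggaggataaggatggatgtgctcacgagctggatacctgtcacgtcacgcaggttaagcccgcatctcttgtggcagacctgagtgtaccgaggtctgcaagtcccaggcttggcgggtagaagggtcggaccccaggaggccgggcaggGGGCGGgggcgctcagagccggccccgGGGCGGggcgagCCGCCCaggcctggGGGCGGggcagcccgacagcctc
Hes6: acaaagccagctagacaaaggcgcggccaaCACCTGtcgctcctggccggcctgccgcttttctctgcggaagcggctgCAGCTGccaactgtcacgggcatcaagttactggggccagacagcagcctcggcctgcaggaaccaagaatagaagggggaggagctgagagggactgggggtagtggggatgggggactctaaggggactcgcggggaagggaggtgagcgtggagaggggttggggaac
The Notch2 window held 5 GC boxes, that of Notch3 held 4 and that of Notch1, not shown, held 5. None of those 3 receptor windows held either E-box. Hes6 has a pair of windows in the table. The one shown held 1 CAGCTG and 1 CAGGTG, with no GC box and no overlap between the matches, and the other, at chr1:91413223-91413472 on the minus strand, held 1 CAGCTG and 2 GC boxes. No window of the 7 genes held TGGGAA, which says only that these letters are not in these windows. Over all 32851 windows of the same length, 21.6% held TGGGAA, 13.0% CAGCTG, 17.2% CAGGTG and 32.7% GGGCGG.

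Values are TPM, transcripts scaled for length and for the size of the library, so genes can be compared with each other. TPM holds no read depth, so the error of counting is unknown. Summed over the listed genes, TPM came to 642180 to 743269 in the Re table, with the lowest sum in DMSO replicate 2, and to 479938 in the GBC library and 403442 in its DMSO control. Across the 11967 genes that averaged 1 TPM or more, Re minus DMSO had a median of 0.105 on the log2(TPM + 1) scale, a shift that median-of-ratios scaling took to -0.000489. The myoblast label was checked against its markers. In the Re comparison 7 of 8 myoblast markers averaged at least 1 TPM in Re as in DMSO libraries, and their summed level was 245.4 to 251.3 TPM in Re and 231.8 to 263.4 TPM in DMSO libraries. In the pair the same sum was 9.29 TPM in the GBC library and 8.12 TPM in the DMSO library. Most of it was Vcam1, at 7.49 TPM in GBC and 6.05 TPM in DMSO, with Des at 1.59 TPM and 1.92 TPM. Myod1, Myf5 and Cdh15 were listed at 0 in both, and these zeros go against the label. Pax7 was also at 0 in both, but it stayed at 0 to 0.13 TPM in the Re table, so it does not set the pair apart.

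Of the 10 genes, Hes1, Hes6 and Notch2 had the highest mean levels in the Re table. In the Re libraries the order by mean level was Hes6 at 24.5 TPM, Hes1 at 24.1, Notch2 at 16.8, Numb at 11.5, Jag1 at 10.7, Notch3 at 3.34, Notch1 at 3.25, Hey1 at 3.06, Dll1 at 0.883 and Heyl at 0 TPM. In the DMSO libraries Hes1 led with 26.2 TPM, followed by Hes6 at 21.7, Notch2 at 15.4, Numb at 9.41, Jag1 at 9.11, Notch1 at 3.43, Notch3 at 3.20, Hey1 at 2.45, Dll1 at 0.537 and Heyl at 0.0200 TPM. Neighbours whose library ranges overlapped were Hes6 and Hes1, Numb and Jag1, Notch3 and Notch1, and Notch1 and Hey1 in Re, and Numb and Jag1 and Notch1 and Notch3 in DMSO. The other neighbours did not overlap in their ranges.

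**Figure D1:**
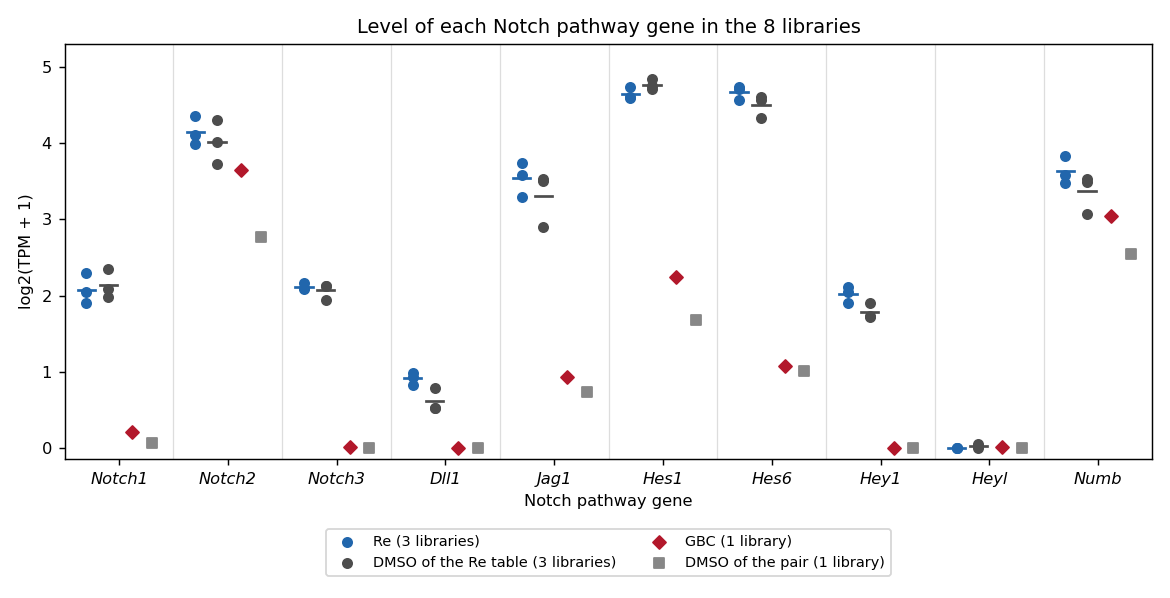
Level of the 10 genes on the log2(TPM + 1) scale, with 1 point per library and a line at the mean of 3 libraries. Re stands beside its DMSO libraries and GBC beside its DMSO library; Notch1, Notch3, Dll1 and Hey1 are at or near 0 in the pair, and Heyl is at or near 0 in all 8 libraries.

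The comparison of Re with DMSO asked what ginsenoside Re does to these genes in cells labelled as myoblasts. None of the 8 pathway genes that could be tested passed the threshold in limma, with 0 of 8 at an adjusted p under 0.05 and 0 of 8 at an unadjusted p under 0.05. As background, 0 of 11967 genes, 0% of those tested, passed and 745 genes, 6.23%, had an unadjusted p under 0.05. Dll1 and Heyl lay under the mean of 1 TPM and were not tested. Of the 8 tested genes 6 were higher and 2 lower, and their median difference was 0.154, against the median of 0.105 over all genes tested; after median-of-ratios scaling their median was 0.0447, with 5 higher.

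Among the receptors, Notch2 had 16.2, 14.9 and 19.5 TPM in Re libraries, against 18.7, 12.2 and 15.2 TPM in DMSO libraries. Its groups overlapped, and DMSO replicate 2 held the lowest value. The difference was 0.14 with a 95% confidence interval of -0.25 to 0.52, and -0.01 without DMSO replicate 2. Notch1, a receptor with an established part in satellite cell maintenance, had 3.12, 2.72 and 3.91 TPM in Re libraries, against 3.25, 2.96 and 4.09 TPM in DMSO libraries, a difference of -0.06 (interval -0.46 to 0.33). Notch3, which is known in mouse muscle as a receptor that restrains the signal of Notch1, had 3.24, 3.28 and 3.49 TPM in Re libraries, against 3.37, 3.38 and 2.84 TPM in DMSO libraries, a difference of 0.05 (interval -0.27 to 0.37). All 3 receptors overlapped between the groups. Their summed level was 23.4 ± 3.12 TPM in Re and 22.0 ± 3.37 TPM in DMSO libraries (SD, n = 3 each). Notch2 made up 71.8% ± 0.623 of that sum in Re and 69.4% ± 4.05 in DMSO libraries (SD, n = 3 each), with a two-sided exact permutation p of 0.4.

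Of the ligands Jag1 and Dll1, Jag1 was the more abundant. It had 11.0, 8.80 and 12.4 TPM in Re libraries, against 10.5, 6.45 and 10.4 TPM in DMSO libraries. The groups overlapped, with the lowest value again in DMSO replicate 2, and the difference of 0.23 (interval -0.23 to 0.69) came to 0.02 without that library. Dll1, the Delta-like ligand that somites and muscle progenitors use, had 0.90, 0.97 and 0.78 TPM in Re libraries, against 0.44, 0.44 and 0.73 TPM in DMSO libraries. Every Re value of Dll1 lay above every DMSO value, and Dll1 was the only one of the 10 genes of which this held. Among the 1098 genes with a mean of 0.5 to 1 TPM, such separation upward was seen in 81, or 7.38%, and among the genes tested in 1639, or 13.7%, with 152, or 1.27%, separated downward. The difference of Dll1 was 0.30, or 0.25 after median-of-ratios scaling, and when the filter on low values was dropped its adjusted p in limma was 0.774 with an interval of -0.01 to 0.60.

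The differences of the Hes and Hey genes had both signs, and none passed the test. Hes1, the classic Notch target and a repressor of myogenic genes, had 25.7, 23.4 and 23.1 TPM in Re libraries, against 27.6, 25.9 and 25.2 TPM in DMSO libraries. Its highest Re value lay between the DMSO values, and the other Re values lay below all of them. The difference was -0.12 (interval -0.33 to 0.09) as deposited and -0.23 (interval -0.44 to -0.02) after median-of-ratios scaling. With that scaling the unadjusted p of Hes1 in limma was 0.0339 and the adjusted p 0.963. As background, 565 of 11967 genes had an unadjusted p under 0.05 in limma after the same scaling. Hes6 had 25.1, 25.7 and 22.6 TPM in Re libraries, against 23.3, 19.1 and 22.6 TPM in DMSO libraries, a difference of 0.17 (interval -0.08 to 0.43). The lowest Re library and a DMSO library shared the value 22.59 TPM, so the groups touched. Hey1, a target that pairs with Hes repressors, had 3.31, 3.13 and 2.75 TPM in Re libraries, against 2.32, 2.75 and 2.28 TPM in DMSO libraries. Its lowest Re value equalled its highest DMSO value, and the difference was 0.24 (interval -0.11 to 0.58). Heyl, a Hey family target known from satellite cells, was listed at 0 in all 3 Re libraries and at 0.02, 0 and 0.04 TPM in the DMSO libraries.

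Numb had 10.1, 11.0 and 13.2 TPM in Re libraries, against 10.6, 7.43 and 10.2 TPM in DMSO libraries. DMSO replicates 1 and 3 lay above the lowest Re value, and DMSO replicate 2 was the lowest. The difference of 0.27 (interval -0.10 to 0.63) was the largest among the 8 tested genes as deposited, and came to 0.12 without DMSO replicate 2. Adjusted p-values in limma ran from 0.687 for Numb to 0.901 for Notch3 as deposited.

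**Figure D2:**
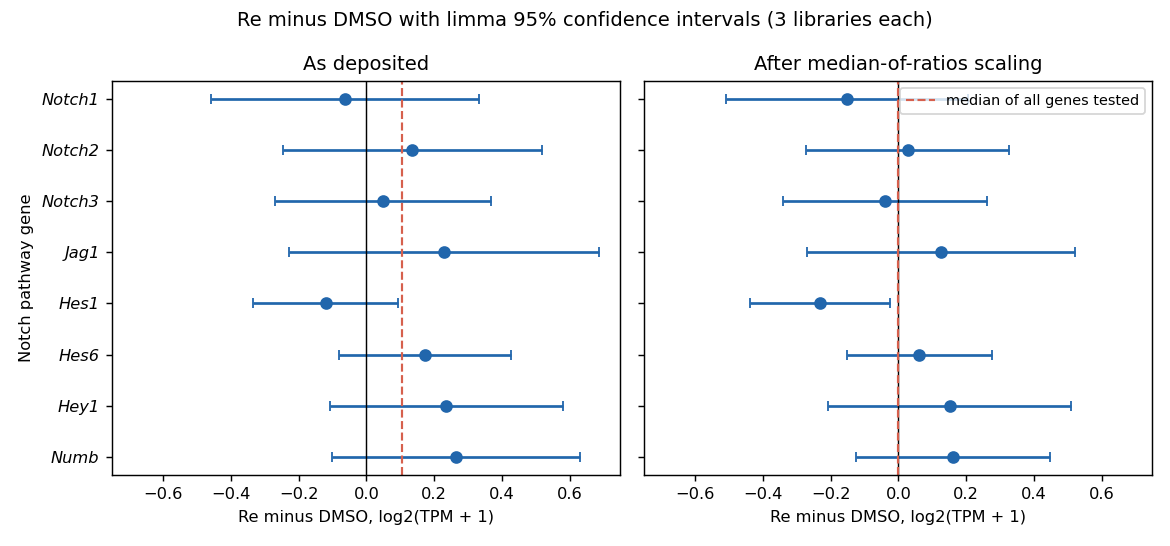
Re minus DMSO on the log2(TPM + 1) scale for the 8 tested genes, as deposited on the left and after median-of-ratios scaling on the right. Points are limma estimates and bars are 95% confidence intervals, not adjusted for the number of genes. Every interval as deposited crosses 0. That of Hes1 lies below 0 after scaling, at -0.44 to -0.02, with an adjusted p of 0.963 in limma.

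Ratios within a library do not depend on how the library was scaled, and 6 of them were computed after the levels had been seen. Hes6 over Hes1 was 0.978, 1.10 and 0.977 in Re libraries, against 0.842, 0.738 and 0.895 in DMSO libraries. Each Re value lay above each DMSO value, at 1.02 ± 0.0709 in Re and 0.825 ± 0.0797 in DMSO (SD, n = 3 each). Hes1 over Hey1 was 7.77, 7.47 and 8.41 in Re libraries, against 11.9, 9.41 and 11.1 in DMSO libraries, and the groups did not overlap here either. Both ratios had a two-sided exact permutation p of 0.1, the smallest that 3 against 3 libraries allow, and 0.3 after Benjamini-Hochberg adjustment over the 6. They share Hes1, so they are not separate observations. Jag1 over Dll1 was 12.4 ± 3.42 in Re and 17.6 ± 5.48 in DMSO (SD, n = 3 each), with overlapping groups and an exact permutation p of 0.3.

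**Figure D3:**
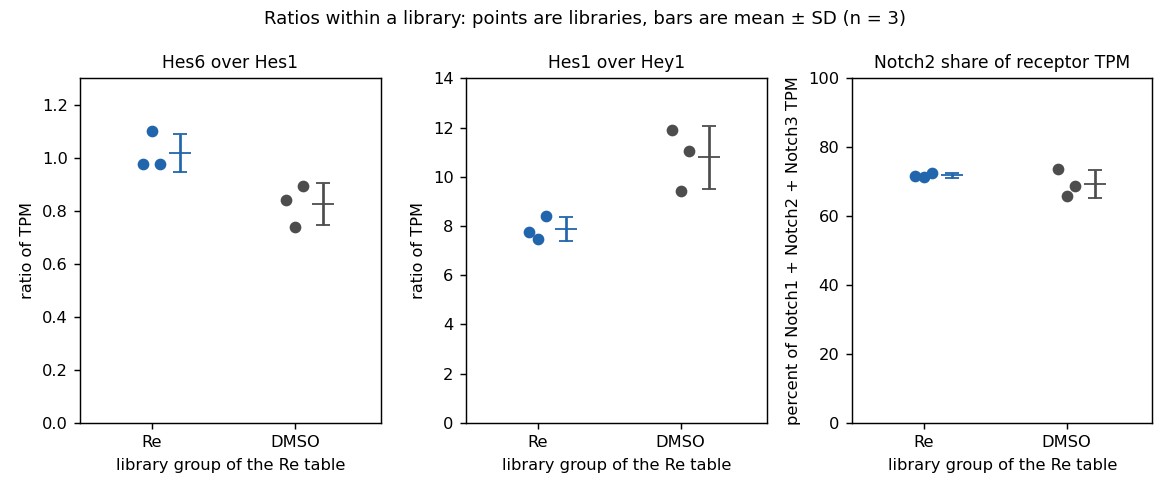
Hes6 over Hes1, Hes1 over Hey1 and the Notch2 share of the summed TPM of Notch1, Notch2 and Notch3 in each library of the Re table. There is 1 point per library, with the mean ± SD of 3. Re and DMSO do not overlap in either ratio, with means of 1.02 against 0.825 and 7.88 against 10.8, and overlap in the Notch2 share.

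Across the 6 libraries of the Re table, the genes whose levels followed Hes1 most closely were Unc13d, Adamtsl4 and Ndufaf5, with Pearson's r of 0.98, 0.95 and 0.94. The 6 points share their library scaling and group, and the genes were picked as the highest of 11967, so these values are a description.

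The wider pathway was read from a list of 65 other genes sorted by role, of which 50 could be tested for Re. None passed the threshold in limma and 1 had an unadjusted p under 0.05, against the 6.23% of all genes. In sum 38 were higher and 12 lower, with a median of 0.0804, below the 0.105 of all genes; after median-of-ratios scaling 20 of 50 were higher, with a median of -0.0228. Full separation of the groups was seen upward in 6 of the 50 and downward in 0, against 13.7% and 1.27% of all genes. Among the E3 ligases that act on ligands, Mib2 averaged 12.3 ± 0.493 TPM in Re and 10.01 ± 1.14 TPM in DMSO (SD, n = 3 each), a difference of 0.27, with an unadjusted p of 0.0452 and an adjusted p of 0.687 in limma. Mib1, its better known relative, differed by 0.21.

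Of the enzymes that cut the receptor, Psen2, a catalytic subunit of gamma-secretase, averaged 5.38 ± 0.831 TPM in Re and 4.11 ± 0.183 TPM in DMSO (SD, n = 3 each), a difference of 0.31, and Adam17, a surface protease, differed by 0.17. Of the sugar transferases that tune ligand choice, Lfng averaged 11.7 ± 1.05 TPM in Re and 13.3 ± 1.05 TPM in DMSO (SD, n = 3 each), a difference of -0.17, while Pofut1, which adds O-fucose to the receptors, differed by 0.15. In the nuclear complex, Snw1 and Kat2b, which act with the freed receptor, differed by 0.19 and 0.14. Among corepressors, Tle4 and Tle2 differed by 0.31 and -0.28. Dtx3, of the Deltex family, and Aak1, a kinase of endocytosis, differed by 0.23 and 0.29. Of the ligand genes, Dlk2, a Delta-like protein, and Jag2 differed by 0.23 and 0.02. The targets Hes2, Hes3, Hes5, Hes7, Hey2 and Nrarp and the receptor Notch4 were under the filter, with Nrarp at 0.453 ± 0.239 TPM in Re and 0.560 ± 0.517 TPM in DMSO (SD, n = 3 each).

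The GBC pair asked the same of ginseng berries concentrate, with 1 library a side and so no test. Notch2 was the most abundant of the 10 genes in both libraries, at 11.6 TPM in the GBC library and 5.78 TPM in the DMSO library, a linear ratio of 2.002 and a difference of 0.89 on the log2(TPM + 1) scale. Numb was at 7.21 TPM in GBC and 4.86 TPM in DMSO, a difference of 0.49. Hes1 was at 3.72 TPM in GBC and 2.19 TPM in DMSO, a difference of 0.57. Hes6 was at 1.10 TPM in GBC and 1.02 TPM in DMSO, a difference of 0.06.

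These 4 were the genes of the 10 that averaged 1 TPM or more over the pair, and all 4 were higher in GBC, with a median of 0.526. Most genes were: of 10989 with such a mean, 9755 were higher, and their median was 0.32. After median-of-ratios scaling Notch2 differed by 0.55, Hes1 by 0.28, Numb by 0.15 and Hes6 by -0.14. A difference as large as that of Notch2 or larger was seen in 6.71% of the 10989 genes as deposited and in 7.73% after scaling. For Hes1 these shares were 23.7% and 21.6%, for Numb 31.0% and 32.6%, and for Hes6 83.8% and 68.8%. The size rule counts genes that average 5 TPM or more and differ by 1 or more. By it, Notch2 and Numb were the 2 of the 10 genes abundant enough to count, and 0 of the 2 passed, against 4.97% of 6639 genes that passed upward and 0.241% downward.

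Below 1 TPM in the pair, Jag1 was at 0.91 TPM in GBC and 0.67 TPM in DMSO, and Notch1 at 0.16 TPM in GBC and 0.05 TPM in DMSO. Notch3 and Heyl were each at 0.01 TPM in GBC, the smallest step of the file, and listed at 0 in DMSO. Dll1 and Hey1 were listed at 0 in both. Notch2 made up 98.6% of the summed TPM of Notch1, Notch2 and Notch3 in the GBC library and 99.1% in its DMSO control. That sum leaves out the receptor Notch4, which was at 1.26 TPM in GBC and 0.37 TPM in DMSO, above Notch1 and Notch3 in both libraries. Hes6 over Hes1 was 0.296 in GBC and 0.466 in DMSO, with no replicate to measure its spread.

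Of the 65 other pathway genes, 48 averaged at least 1 TPM in the pair, with 44 higher and 4 lower in GBC and a median of 0.46, or 0.122 after median-of-ratios scaling. Over all genes 9755 of 10989 were higher, with a median of 0.32. None of the 27 with at least 5 TPM passed the size rule, against the 4.97% of all genes that passed it upward and 0.241% downward. By role, the differences taken by size were those of the receptor-cutting proteases Adam10 and Furin at 0.91 and 0.67, the nuclear cofactors Ep300 and Rbpj at 0.81 and 0.80, the corepressor Tle3 at 0.77, the endocytosis genes Aak1 and Numbl, a relative of Numb, at 0.68 and 0.56, the ligand-like Dlk2 and Dlk1 at 0.59 and 0.56, the sugar transferases Rfng and Pofut1 at 0.53 and 0.36, and the ligases Mib1 and Mib2 at 0.52 and 0.31. That of Mib2 lay below the median of all genes, and after median-of-ratios scaling Mib2 differed by 0.02 and Pofut1 by 0.04. The 4 lower genes were Psenen at -0.32 and Aph1a at -0.02, both with a role in cutting the receptor, Hdac1 at -0.13 and Snw1 at -0.03. After scaling these were at -0.69, -0.38, -0.49 and -0.41 in the same order, beside 0.58 for Adam10. Other genes, such as Adam17 at -0.16, turned lower after scaling. Rbpj itself was at 11.3 TPM in GBC and 6.11 TPM in DMSO. The Re table, which shares no library with the pair, had Rbpj at 12.9 ± 3.03 TPM in Re and 13.9 ± 4.08 TPM in DMSO (SD, n = 3 each).

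**Figure D4:**
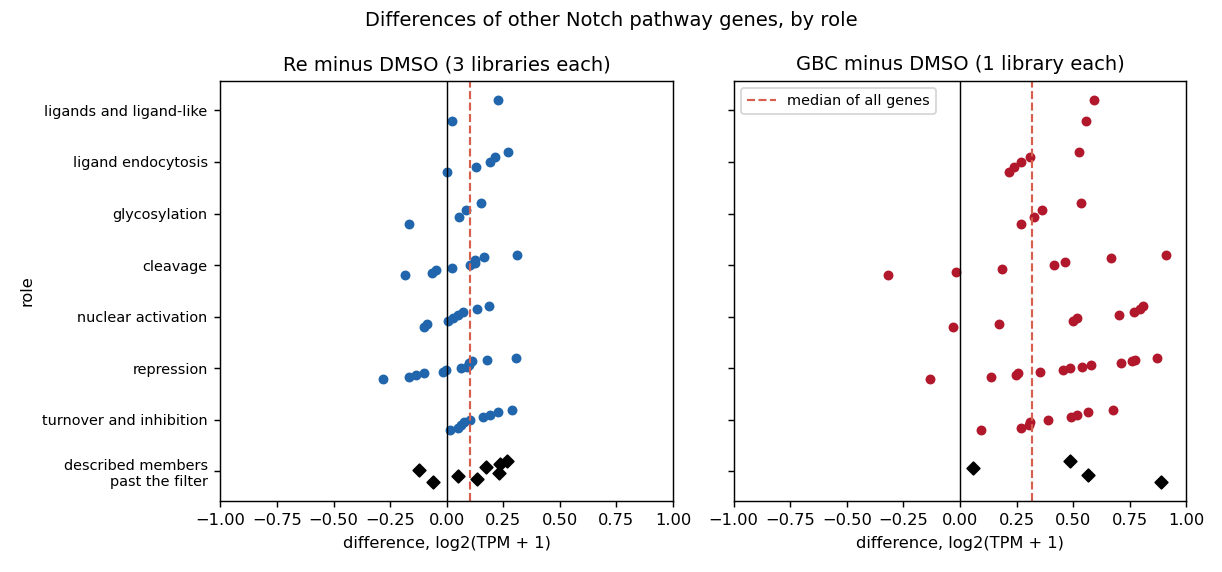
Differences on the log2(TPM + 1) scale of the other pathway genes past the filter of 1 TPM, by role, for Re on the left and GBC on the right, with the described members as black diamonds. Dashed lines mark the median of all genes, 0.105 for Re and 0.32 for GBC; the Re points lie on both sides of their line and most GBC points lie above 0.

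Levels of these genes also differed between the control libraries of the tables. Each table was taken to have its own normalisation, so these levels are descriptions without a test. They are given as deposited. Listed TPM summed to 642180 to 716589 in the DMSO libraries of the Re table and to 403442 in that of the pair. Whether each gap remains at equal sums was not tested. Hes6 was at 19.1 to 23.3 TPM in the 3 DMSO libraries of the Re table and at 1.02 TPM in the DMSO library of the pair. Hes1 was at 25.2 to 27.6 TPM and at 2.19 TPM in the same order of tables, Jag1 at 6.45 to 10.5 TPM and 0.67 TPM, and Notch3 at 2.84 to 3.38 TPM and 0. Numb and Notch2 were nearer as deposited. Numb was at 7.43 to 10.6 TPM and 4.86 TPM, and Notch2 at 12.2 to 18.7 TPM and 5.78 TPM. The myoblast markers moved with this contrast, as given above, while fibroblast and mesenchymal markers summed to 48.0 to 57.1 TPM in the DMSO libraries of the Re table and to 110.2 TPM in that of the pair. In that list Thy1 was listed at 0 in the Re table's DMSO libraries and at 23.8 TPM in the pair's, and Ly6a was at 12.8 to 13.8 TPM and 51.5 TPM. As deposited, Col1a1, Twist2 and Dcn were lower in the pair. Col1a1 was at 14.01 to 19.0 TPM and 10.9 TPM, Twist2 at 18.2 to 22.5 TPM and 17.9 TPM. Dcn was at 0.29 to 0.57 TPM and 0.19 TPM. Pdgfra was higher in the pair, at 1.95 to 2.53 TPM and 5.85 TPM. Lum was listed at 0 and at 0.04 TPM. The smooth muscle and pericyte list summed to 1438 to 1601 TPM, mostly through Acta2, and to 22.7 TPM in the pair. There Cspg4 was at 14.4 TPM and Acta2 at 6.49 TPM. The endothelial list, where Notch genes are also active, summed to at most 0.350 TPM and 0.220 TPM. The part of these markers in the levels of the Notch pathway genes was not tested. In such bulk samples fewer cells of a type and less RNA per cell cannot be told apart.

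Exons of 5 of the 10 genes overlapped another annotated gene in GENCODE M21, and whether the counting used strand is not given in the sources used here, so reads of these genes may be shared. They were Notch1 with 0610009E02Rik and Gm13568, Notch3 with Gm17276, Dll1 with a long noncoding RNA and Numb with Gm46367 on the opposite strand, and Notch2 with Gm42820 on the same strand. Of those with values here, Gm13568 reached 2.79 TPM, in Re replicate 2, beside 2.72 TPM of Notch1 there. 0610009E02Rik was highest in the GBC library, at 1.2 TPM, and was at 0.56 TPM in its DMSO control. Both values lay above those of Notch1 in the pair, 0.16 TPM and 0.05 TPM. The remaining overlapping genes with values here stayed at or below 0.63 TPM in all 8 libraries. The long noncoding RNA that overlaps Dll1 has no value here, so its level beside Dll1 is unknown.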

How the data were processed

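RNA of 8 samples was sequenced. Per the file names, the authors deposited the log2 of TPM + 1 for each Ensembl gene, 1 table for Re and 1 for GBC. The submitters' processing notes name STAR, RSEM, GRCh38 and GRCm39, without versions or roles. Taken back to TPM, the values lay within 2.0e-04 of steps of 0.01. TPM holds no counts, so a count model was not used.

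Re and DMSO libraries were set against each other with limma 3.58.1 (R 4.3.3; two-sided, moderated, trend on) using a pseudocount of 1. Genes averaging 1 TPM or more over the 6 libraries entered, and p-values were adjusted over all of them by Benjamini-Hochberg at a threshold of 0.05; the step was tested on simulated data. The scale understates changes of low genes. GBC and DMSO have 1 library each, so a size rule replaced the test. Ratios used exact permutation tests. Median-of-ratios factors came from genes above 0 in every library with a mean of at least 1 TPM. Python 3.11.15 with numpy 2.4.6, pandas 2.3.3 and matplotlib 3.10.9 did the rest.

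The members and gene lists were chosen with earlier results of these data known. All 10 members were named; of other pathway genes, up to 2 per role with the smallest p (Re) or the largest difference (GBC). The value of 1 corepressor gene in the GBC pair is not reported here. Rbpj and Nrarp in the Re table, Notch4 and the lower genes in the pair, and the levels of markers were picked after their values were seen. Alternatives were other pseudocounts, filters and scalings, leaving out mitochondrially encoded genes, other limma settings, leaving out each library, and a replicate block. Promoter windows came from RefSeq on GRCm38.p6, not the GRCm39 that the notes name, and were matched by symbol. Exon overlaps came from GENCODE M21 on GRCm38.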

Additional observations from a re-analysis of the deposited data

How the results depend on the processing

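No member was called under an alternative in which it was tested. Dll1 and Heyl were tested only without a filter, and Notch1, Notch3 and Hey1 not at a mean of 5 TPM or more. For all genes, limma called 0 to 7 when 1 library was left out, from 0 without DMSO replicate 3 to 7 without Re replicate 3, and 0 under every other alternative. The median over the 8 tested members was 0.0447 to 0.217, with 0.0523 to 0.217 when 1 library was left out. Signs turned for receptors near 0. Notch3 was at -0.0394 after median-of-ratios scaling, -0.0449 after quantile normalization, -0.00239 at equal sums and -0.0233 at equal sums with mitochondrially encoded genes left out. When 1 library was left out, Notch3 ran from -0.0132 without DMSO replicate 3 to 0.0818, Notch1 from -0.171 to 0.0414 without DMSO replicate 3 (0.029 without Re replicate 2), and Notch2 from -0.00989 without DMSO replicate 2 to 0.277. Adjusted p-values of the members in limma ran from 0.386 to 0.998 over the alternatives. The other 147 values of single members kept their direction and side of the threshold or moved by less than 0.1, and 20 GBC values moved further. Of these, Hes6, at 0.056 as deposited, was at -0.144 after median-of-ratios scaling, -0.1 at equal sums and -0.0739 at equal sums with mitochondrially encoded genes left out.

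In the GBC pair 346 genes passed the size rule, 129 after median-of-ratios scaling, 208 at equal sums, 522 when the mean had to reach 1 TPM and 218 when it had to reach 10 TPM. The median over the members was 0.526, and 0.649 with a pseudocount of 0.1, 0.216 after median-of-ratios scaling, 0.371 at equal sums and 0.417 at equal sums with mitochondrially encoded genes left out. At a mean of at least 10 TPM no member was left and no median could be given.

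With the replicate number as a replicate block, limma called 0 genes, 0 of them members. Deviations of same-numbered libraries correlated at 0.163, 0.0771 and 0.0168, and those of libraries with unlike numbers at -0.172 to 0.0945. These values do not settle whether the numbers are pairs. The labels state no pairing, so the numbers were not taken as pairs. Depth is unknown, which limits values below about 1 TPM most.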

Other observations

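Several pathway genes that are not among the 10 also stood apart between the tables. Dlk1, a Delta-like membrane protein of mesenchymal progenitors that lacks the Notch-binding domain of the ligands, was at 93.1 TPM in the GBC library and 63.1 TPM in its DMSO control, and was listed at 0 in all 6 libraries of the Re table. Jag2 was at 17.4 ± 3.02 TPM in Re and 17.0 ± 2.12 TPM in DMSO libraries of the Re table (SD, n = 3 each), and at 0.23 TPM in GBC and 0.16 TPM in DMSO in the pair. Furin, which makes the first cut of the receptors, was at 32.2 ± 9.54 TPM in Re and 28.7 ± 2.60 TPM in DMSO (SD, n = 3 each), and at 2.34 TPM in GBC and 1.10 TPM in DMSO in the pair. Lfng was at 1.45 TPM in GBC and 0.95 TPM in DMSO. The E3 ligase Nedd4 was abundant in both tables, at 239.1 ± 11.0 TPM in Re, 228.9 ± 9.63 TPM in DMSO (SD, n = 3 each), 157.0 TPM in GBC and 127.0 TPM in its DMSO control. These genes were picked after their values were seen, and the tables were treated as normalised separately.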
